A study of Rattus norvegicus with 30 samples.

Results

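Genes of glucose uptake, glycolysis and the response to low oxygen were followed in endothelial-enriched cells of the rat lung after Glenn surgery. The set holds 34 genes listed by name for what they do. The list was chosen with earlier results of these data known. Of these, 30 have a row of that name among the 30562 rows of the count table, and 29 passed the filter on low counts that left 16171 genes for testing. Hif3a, the third HIF alpha subunit, was filtered out because no library held more than 3 counts of it. No row carries the names Tpi1, Gapdh, Pkm or Ldha, so they are not among the 29, and rows named as copies of them are given below.

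RNA was sequenced from lung cells selected on microbeads for CD31, which marks the endothelial surface. The rats were wild-type and were sampled 3 weeks after sham or Glenn surgery. Each operation was combined with a control, a deficient or an excess level of vitamin A in the diet, which gives 6 groups of 5 libraries. Glenn surgery connects a caval vein directly to a pulmonary artery, and the lung then receives caval blood without hepatic venous blood. No group was unoperated. Strain, sex, age, the lung sampled and the animals behind each library are not given in the labels, so p-values measure only the spread between these libraries, which may in part be technical.

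Libraries held 22 to 77.6 M (mega) estimated counts (median 40 M). Of the endothelial genes, Pecam1 (863 to 1731 CPM) and Cdh5 (1557 to 2926 CPM) were both abundant in every library, where CPM is the normalised count per 1 M counts of a library. The sort was not pure, because the alveolar epithelial gene Sftpc stood at 15062 to 36185 CPM. The summed level of 9 mural (smooth muscle and pericyte) markers was 178 to 367 CPM in sham and 535 to 1825 CPM in Glenn libraries. The summed level of 7 lymphatic markers was 1099 to 2023 CPM in sham and 2494 to 5124 CPM in Glenn libraries. Neither sum overlapped between the operations, and all 9 mural and all 7 lymphatic markers rose. The library names fall into 2 number ranges, called series A (22 libraries) and series B (8 libraries), and both control-diet groups and the sham excess group hold series A only. The histocompatibility gene RT1-CE16 was above 100 CPM in 13 libraries. They include all 8 series B libraries and no sham excess library, and the rest are control-diet libraries of series A. The split by RT1-CE16 thus overlaps the series, and every group but sham excess holds both levels.

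Cells sense oxygen through the hypoxia-inducible factors, HIF. When oxygen is present, prolyl hydroxylases mark the alpha subunits, which the VHL ubiquitin ligase then sends for degradation. When oxygen is low, the alpha subunits persist, pair with ARNT and bind promoters that hold a short hypoxia response element. Their targets include glucose transporters, glycolytic enzymes, lactate export and mitophagy genes. Because this control acts mainly on protein, the RNA of an alpha subunit is not a readout of HIF activity. Endothelial cells draw most of their energy from glycolysis, and PFKFB3, which makes the activator of phosphofructokinase, is known as a regulator of vessel sprouting. Epas1 encodes HIF-2 alpha, which is abundant in lung endothelium.

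The promoters of 3 members are printed because they set the response element beside 3 kinds of result described below. Pfkfb3 rose, its sister gene Pfkfb4 fell, and the mitophagy gene Bnip3, whose promoter holds several copies of the core of the element, fell. These genes were picked after their values were seen. Sequences are RefSeq promoters on build GRCr8, 250 bases before to 50 bases after the transcription start, 5′ to 3′ on the gene's strand. Capitals mark the core of the element, ACGTG or GCGTG on either strand, with overlapping matches merged into a single site. Pfkfb3 lies at chr17:71944683-71944982 on the + strand, Pfkfb4 at chr8:118525916-118526215 on the + strand and Bnip3 at chr1:203154913-203155212 on the - strand.
Pfkfb3: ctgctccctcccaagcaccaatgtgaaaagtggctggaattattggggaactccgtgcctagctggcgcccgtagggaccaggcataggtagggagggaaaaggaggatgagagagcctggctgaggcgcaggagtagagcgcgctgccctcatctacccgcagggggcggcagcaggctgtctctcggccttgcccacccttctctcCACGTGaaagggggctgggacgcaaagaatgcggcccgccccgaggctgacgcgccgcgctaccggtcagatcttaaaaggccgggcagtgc
Pfkfb4: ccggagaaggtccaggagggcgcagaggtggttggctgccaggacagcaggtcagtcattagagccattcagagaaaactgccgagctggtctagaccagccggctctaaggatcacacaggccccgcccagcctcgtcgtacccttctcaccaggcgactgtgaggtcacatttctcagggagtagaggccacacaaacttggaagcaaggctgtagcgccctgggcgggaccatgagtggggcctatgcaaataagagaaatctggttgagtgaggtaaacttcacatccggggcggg
Bnip3: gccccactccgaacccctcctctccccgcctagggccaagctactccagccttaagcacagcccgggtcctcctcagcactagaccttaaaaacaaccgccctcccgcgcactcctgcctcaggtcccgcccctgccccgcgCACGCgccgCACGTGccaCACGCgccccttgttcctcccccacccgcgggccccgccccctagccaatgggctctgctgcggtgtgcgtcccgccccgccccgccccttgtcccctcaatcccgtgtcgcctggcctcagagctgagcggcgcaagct

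The Pfkfb3 window holds 1 site, 42 bases before the start, the Bnip3 window holds 3, and the Pfkfb4 window holds none. RefSeq promoters matched 26 of the 30 members in the count table, and Slc2a3, Ndrg1, Pgk1 and Bnip3l were not matched. A site was present in 19 of the 26 (73.1%), against 42.9% of 27457 promoters of that length. Only the first listed promoter of each gene symbol was used. A later entry of Hk1 and of Aldoa held 1 site where the first held none. A later Eno1 entry held 2 sites where the first held 1, and the later Hif3a entry held none where the first held 2. Among matched members, 8 of the 11 that were higher after Glenn surgery, 3 of the 5 that were lower and 7 of the 9 that did not pass the test held a site. The matched member left over is Hif3a, which was not tested. At least 2 sites stood in 3 of the 11 higher members, in 3 of the 5 lower members and in 6 of the 9 that did not pass, against 16.9% of all promoters. A match of 5 letters is a description and not evidence of binding, and a window with no match says only that these letters are not in it.

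After Glenn surgery the members did not all move one way. The glucose transporter Slc2a3, the glycolytic activator Pfkfb3 and the stress gene Ndrg1 rose 8.51-fold, 3.62-fold and 2.86-fold averaged over the 3 diets, and Hif1a rose 1.49-fold. Epas1 fell 1.94-fold. The core enzymes Pgk1, Pgam1 and Aldoa did not pass the test, with log2 changes of 0.03, -0.004 and -0.07, and the sign of the Pgam1 value turned with DESeq2's scaling (0.0085). In the edgeR quasi-likelihood fit, 19 of 29 members changed at an adjusted p under 0.05 (65.5%), 14 higher (48.3%) and 5 lower (17.2%). Among all 16171 genes 48.2% changed, 23.4% higher and 24.7% lower, so the share of higher members was above that of all genes and the share of lower members below it. The median log2 change was 0.17 over the members and -0.01 over all genes, and the median absolute log2 change was 0.25 and 0.22.

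In bulk RNA, fewer cells of a type and less RNA per cell cannot be told apart, which holds for every change below. The mural and lymphatic markers moved with surgery, so a fit with either score as a covariate has little sham and Glenn overlap to work with. With the mural score 8 members remained called, and with the lymphatic score, chosen after seeing the data, 10 were called. The share of all genes called in these fits is not given here, so the counts have no background beside them. Slc2a3, Pfkfb3, Ndrg1, Epas1 and Hk1 were called in both, with log2 changes of 2.57, 2.04, 1.41, -0.90 and 0.37 beside the mural score and 2.90, 1.24, 1.2, -1.03 and 0.37 beside the lymphatic score. Bnip3l lost the call with the mural score, Bnip3 and Pfkp with the lymphatic score, and Pfkm with either, while Pdk1 was called besides with the lymphatic score. How much of each change comes from the mix of cells cannot be told apart from surgery here.

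**Figure D1:**
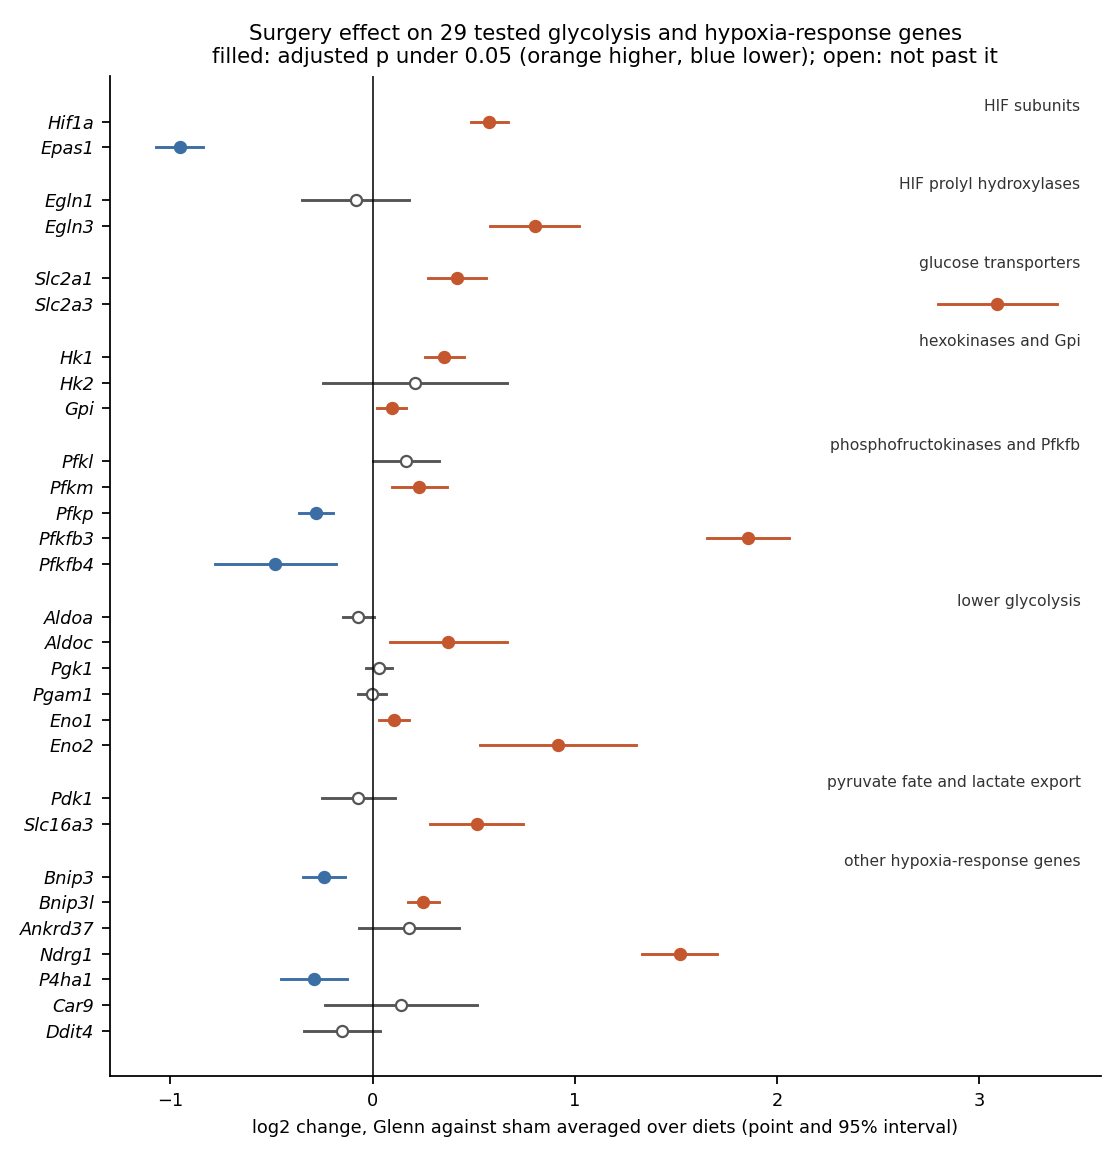
Log2 change of each tested member, Glenn against sham averaged over the 3 diets (x axis), with genes ordered by role (y axis) and bars for the 95% interval. Slc2a3, Pfkfb3 and Ndrg1 lie far to the right at 3.09, 1.86 and 1.52, Epas1 lies at -0.95, and most glycolytic enzymes lie near 0.

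The HIF alpha subunits went in opposite directions. Hif1a (ENSRNOG00000008292) encodes HIF-1 alpha, the subunit most tied to glycolytic targets. Sham libraries held 112, 104, 114, 124 and 113 CPM on the control diet, 106, 121, 134, 102 and 111 on the deficient diet and 98.4, 108, 114, 95.3 and 108 on the excess diet. Glenn libraries held 159, 142, 156, 150.0 and 163 CPM on the control diet, 179, 163, 201, 160 and 168 on the deficient diet and 151, 155, 177, 175 and 193 on the excess diet. Every Glenn library was above every sham library. The log2 change was 0.58 (SE 0.05, edgeR adjusted p 1.76e-11). With the mural score as a covariate it was 0.28 and missed the threshold (edgeR adjusted p 0.0546), while it stayed called in the other settings tried.

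Epas1 (ENSRNOG00000021318) stood at 5159, 5239, 6441, 4985 and 5519 CPM in sham libraries on the control diet, at 5772, 5083, 5004, 5355 and 4842 on the deficient diet and at 4578, 5843, 5843, 5431 and 6073 on the excess diet. In Glenn libraries it stood at 2835, 2763, 2218, 2317 and 2349 CPM, at 2986, 2236, 2868, 2558 and 2660, and at 3852, 3384, 2818, 3030 and 2595, in the same order of diets. The operations did not overlap, and the highest Glenn value was 1 of the excess diet libraries. The log2 change was -0.95 (SE 0.06, edgeR adjusted p 6.06e-14). Epas1 is also a marker of lung endothelium, and general capillary markers fell in 5 of 6 and rose in none. Other endothelial lists were split. Among general endothelial markers, Kdr (-0.85), Cldn5 (-0.54), Tek (-0.40) and Cdh5 (-0.25) fell, while Erg (0.55), Tie1 (0.28) and Emcn (0.21) rose. Among aerocyte capillary markers, Car4 (-1.92), Tbx2 (-1.65) and Ednrb (-1.21) fell, while Apln (1.36) and Chst1 (1.07) rose. Whether any of these shifts moved the Epas1 level was not tested. Hif3a reached at most 0.0722 CPM in any library, too low for a comparison.

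Prolyl hydroxylases mark HIF alpha for degradation, and Egln3 is itself a HIF target that gives feedback. Egln3 ran from 3.53 to 7.64 CPM in sham libraries (median 6.12) and from 5.72 to 14 CPM in Glenn libraries (median 10.2). The ranges overlapped at their ends, and the log2 change was 0.80 (SE 0.11, edgeR adjusted p 8.37e-07). It was -0.18 with the lymphatic score as a covariate, with an edgeR adjusted p of 0.637. Egln1, the main oxygen sensor of the family, did not pass the test (log2 change -0.08, 95% interval -0.35 to 0.18). A single Glenn deficient library, replicate 3, held 8.15 CPM of Egln1 against 38.3 to 44.5 in the other libraries of its group, and without it the log2 change was 0.03.

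**Figure D2:**
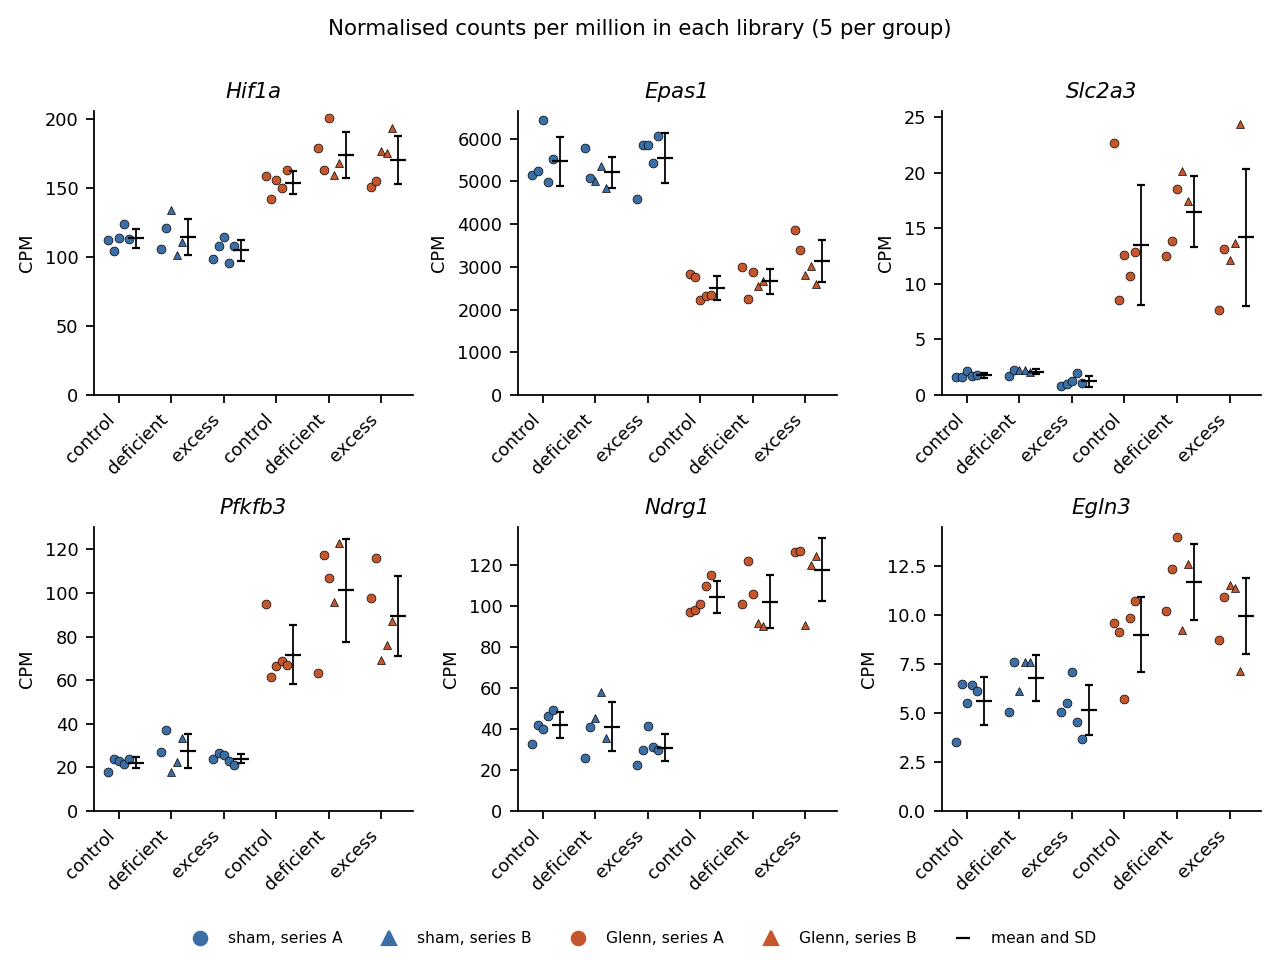
Normalised counts (CPM, y axis) in each library for 6 members, by diet within sham (blue) and Glenn (orange), with circles for series A, triangles for series B and bars for the group mean and SD of 5 libraries. Hif1a, Slc2a3, Pfkfb3 and Ndrg1 are higher in every Glenn library than in any sham library, Epas1 is lower in every Glenn library, and Egln3 overlaps.

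Glucose enters endothelial cells mainly through GLUT1, encoded by Slc2a1, while GLUT3, encoded by Slc2a3, is a high-affinity carrier best known in neurons. Slc2a3 held 1.64, 1.61, 2.12, 1.68 and 1.82 CPM in sham libraries on the control diet, 1.71, 2.22, 2.26, 2.21 and 2.02 on the deficient diet and 0.805, 0.971, 1.23, 1.99 and 1.05 on the excess diet. In Glenn libraries it held 22.7, 8.52, 12.6, 10.8 and 12.9 CPM, then 12.5, 13.9, 18.5, 20.1 and 17.4, and then 7.60, 13.2, 12.2, 13.7 and 24.4. The lowest Glenn library lay well above the highest sham library. The log2 change was 3.09 (SE 0.15, edgeR adjusted p 3.18e-16). Slc2a1 rose much less, from 10.9 to 20.6 CPM in sham (median 13.8) to 12.9 to 22.3 CPM in Glenn libraries (median 19.7). Its change was 0.42 on the log2 scale (SE 0.07, edgeR adjusted p 2.1e-05). With the mural score as a covariate it was 0.25 (edgeR adjusted p 0.392), and with the lymphatic score 0.72.

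Hexokinase traps glucose in the cell as glucose 6-phosphate, and Gpi converts that to fructose 6-phosphate. Hk1 rose modestly (log2 change 0.35), with sham libraries at 105 to 132 CPM (median 121) and Glenn libraries at 129 to 180 CPM (median 155). Gpi was called at a log2 change of 0.09 and lost the call in 18 of the 42 other settings tried. The inducible Hk2 was near 1 CPM and did not pass the test (log2 change 0.21, 95% interval -0.25 to 0.66).

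Phosphofructokinase commits sugar to glycolysis, and Pfkfb enzymes set the level of its activator, fructose 2,6-bisphosphate. Pfkfb3 held 17.9, 24.0, 22.8, 21.6 and 24.0 CPM in sham libraries on the control diet, 27.0, 37.0, 17.7, 22.3 and 33.6 on the deficient diet and 24.0, 26.5, 25.5, 22.9 and 21.1 on the excess diet. In Glenn libraries it held 95.1, 61.4, 66.6, 68.8 and 66.8 CPM, then 63.4, 117, 107, 95.9 and 123, and then 97.6, 116, 69.3, 76.1 and 87.3. No library of either operation reached the range of the other. The log2 change was 1.86 (SE 0.10, edgeR adjusted p 1.68e-14).

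Pfkfb4 went the other way from low levels, 1.63 to 2.89 CPM in sham (median 2.26) and 0.951 to 2.36 CPM in Glenn libraries (median 1.44). Its log2 change was -0.48 (SE 0.15, edgeR adjusted p 0.00993). It was -0.06 with the lymphatic score as a covariate (edgeR adjusted p 0.95) and -0.76 with the mural score (edgeR adjusted p 0.185). The 3 phosphofructokinase genes also differed among themselves. The muscle-type Pfkm rose (log2 change 0.23), the platelet-type Pfkp fell (-0.28), and the liver-type Pfkl did not pass (0.17, 95% interval 0.00 to 0.33). Beside the Pfkp value, all 4 platelet markers fell, by 0.75 (Pf4) to 2.34 (Ppbp) on the log2 scale. Their summed level was 22.8 to 92.1 CPM in sham and 20.6 to 84.6 CPM in Glenn libraries, and their part in the Pfkp result was not tested.

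From aldolase to enolase, sugar phosphates are split and oxidised to yield ATP. The abundant isoforms changed by little. Aldoa (346 to 472 CPM over all libraries), Pgk1 (57.0 to 71.2 CPM) and Pgam1 (120 to 163 CPM) did not pass the test, and their 95% intervals ran from -0.15 to 0.01, from -0.03 to 0.10 and from -0.07 to 0.07 on the log2 scale. Eno1 was called at a log2 change of 0.10. Eno1 lost the call in 5 of the 42 other settings, among them series A alone (0.11, edgeR adjusted p 0.0504) and the mural score (0.04, edgeR adjusted p 0.849). Eno2 and Aldoc, the isoforms best known in neural tissue, were called from low levels. Eno2 ran from 0.610 to 2.67 CPM in sham (median 1.49) and from 0.872 to 4.53 CPM in Glenn libraries (median 2.93). The change was 0.92 on the log2 scale (SE 0.20, edgeR adjusted p 0.000289), and it was -0.28 with the mural score as a covariate (edgeR adjusted p 0.756). Aldoc was called at a log2 change of 0.37 and lost the call in 19 of the 42 other settings. Its values by diet were -0.35 on the control diet, 0.12 on the deficient diet and 1.36 on the excess diet, and only the last passed the test. On the control diet the mean was 4.98 CPM (SD 0.83, n = 5) after sham and 3.88 CPM (SD 1.84, n = 5) after Glenn surgery.

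For the 4 members with no row of their own name, the table has rows named as copies of them, chosen after their values were seen. Reads of near-identical copies can be shared out unevenly by the counting, so these values are uncertain. Whether these rows hold the named genes themselves under another name is not settled by the sources used here. Ldhal1 (ENSRNOG00000013009) ran from 603 to 896 CPM in sham and from 526 to 863 CPM in Glenn libraries and did not pass (log2 change -0.08). Gapdhl3 (ENSRNOG00000018630) did not pass either (0.08). The more abundant Pkml1 row (ENSRNOG00000011329) rose (0.11, edgeR adjusted p 0.0223), and the more abundant Tpi1l2 row (ENSRNOG00000015290) fell (-0.26). Tpi1l1 fell by 0.81 from low levels, and the second rows of Pkml1 (0.21) and Tpi1l2 (-0.36) did not pass.

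Pyruvate can enter mitochondria or leave the cell as lactate. Pdk1, which blocks mitochondrial entry and is a classical HIF-1 target, did not pass the test (log2 change -0.07, 95% interval -0.25 to 0.11). The lactate exporter Slc16a3, also called MCT4, ran from 2.85 to 5.61 CPM in sham (median 4.29) and from 4.06 to 7.73 CPM in Glenn libraries (median 6.17). Its log2 change was 0.51 (SE 0.12, edgeR adjusted p 0.000606). With the mural score as a covariate it was 0.08 (edgeR adjusted p 0.901).

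The remaining members are hypoxia-response genes outside glycolysis. Ndrg1, a stress gene that HIF and other pathways induce, held 32.7, 41.9, 40.0, 46.0 and 49.2 CPM in sham libraries on the control diet, 26.0, 41.1, 45.3, 57.7 and 35.4 on the deficient diet and 22.4, 29.7, 41.3, 31.2 and 29.9 on the excess diet. In Glenn libraries it held 97.1, 98.1, 101, 110 and 115 CPM, then 101, 122, 106, 91.4 and 90.2, and then 126, 127, 90.5, 120.0 and 124. The operations were far apart in every diet, and the log2 change was 1.52 (SE 0.09, edgeR adjusted p 1.47e-13).

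The mitophagy genes Bnip3 and Bnip3l moved apart. Bnip3l rose (log2 change 0.25) from 198 to 236 CPM in sham (median 220) to 226 to 327 CPM in Glenn libraries (median 256). Bnip3 fell (-0.24), with 40.6 to 65.8 CPM in sham (median 46.6) and 32.7 to 50 CPM in Glenn libraries (median 41.7). P4ha1, a collagen prolyl hydroxylase, fell as well (-0.29). P4ha1 lost the call in series A alone (-0.18, edgeR adjusted p 0.203), in RT1-CE16-low libraries (-0.20, edgeR adjusted p 0.288), and with the mural (-0.15, edgeR adjusted p 0.72) or lymphatic score (-0.44, edgeR adjusted p 0.158). Carbonic anhydrase Car9, which is often read as a hypoxia marker, stood at 0.545 to 2.56 CPM over all libraries and did not pass (0.14, 95% interval -0.24 to 0.51). Ankrd37 (0.18) and the mTOR inhibitor gene Ddit4 (-0.15) did not pass either.

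Ratios of related genes within a library are given as log2 ratios after adding 0.5 CPM to each gene, which understates the change of genes at low levels. The ratio of Epas1 to Hif1a fell from a median of 5.65 in sham (5.22 to 5.83) to 3.99 in Glenn libraries (3.74 to 4.67). Slc2a3 over Slc2a1 went from -2.75 (-3.29 to -2.27) to -0.63 (-1.14 to 0.26). The difference of these medians was 2.12, and 1.83 with 1 CPM added instead. Pfkfb4 over Pfkfb3 went from -3.12 (-4.00 to -2.65) to -5.28 (-6.28 to -4.80). For these 3 ratios the operations did not overlap, and for the other 7 ratios formed they did. Since the genes differ in transcript length, only the change in a ratio is read here, not its level.

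**Figure D3:**
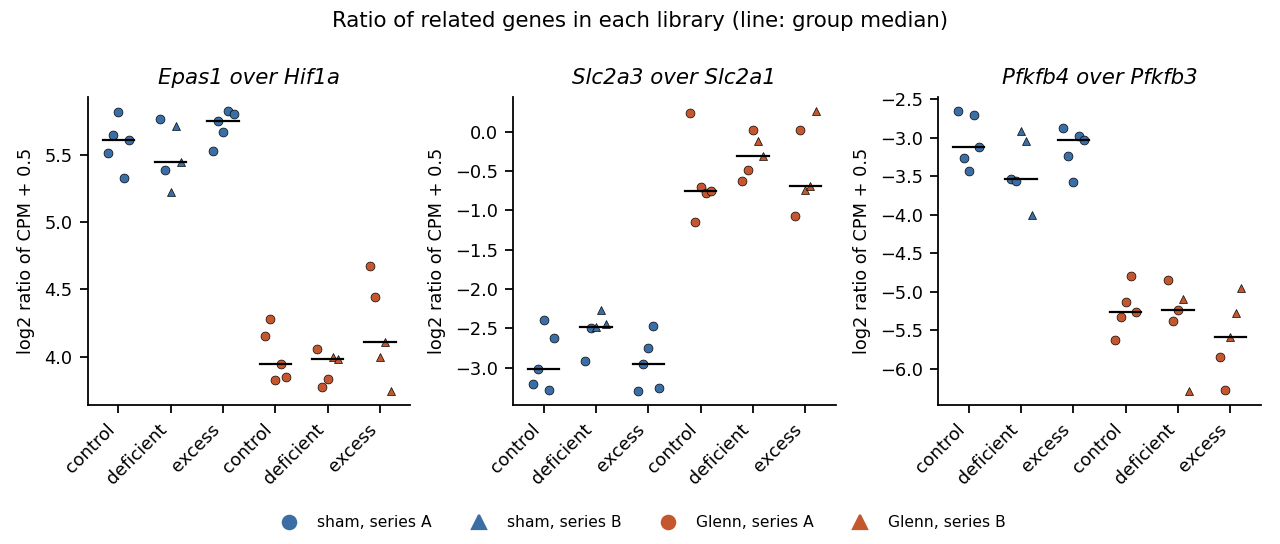
Log2 ratio of CPM plus 0.5 (y axis) for 3 gene combinations in each library, by diet within sham (blue) and Glenn (orange), with lines for group medians. Epas1 over Hif1a and Pfkfb4 over Pfkfb3 are lower and Slc2a3 over Slc2a1 is higher in every Glenn library.

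Across the tested members, 5 of 29 (17.2%) had no overlap between the 15 sham and 15 Glenn libraries, against 5.83% of all genes. They are Hif1a, Slc2a3, Pfkfb3 and Ndrg1, which were higher, and Epas1, which was lower. These 5 include the 3 members that changed at least 2-fold. Of the 19 called members, 8 had an absolute log2 change of at least 0.5 and 11 were smaller. The shares of all genes past 2-fold or past 0.5 are not given here, so these size counts have no background beside them.

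The surgery effect was next read within each diet, with 5 libraries on each side and no library shared between diets. On the control diet 10 members changed, 8 higher and 2 lower, against 24.9% of all genes (11.8% higher, 13.1% lower). On the deficient diet 12 changed, 9 higher and 3 lower, against 27.4% (13.7% higher, 13.7% lower). On the excess diet 12 changed, 10 higher and 2 lower, against 21.9% (11.6% higher, 10.4% lower). The members' shares were 34.5%, 41.4% and 41.4%. Among libraries with low RT1-CE16 alone, chosen after seeing the data, the control diet count was 5, and with the mural score the counts were 5, 6 and 5. For these settings the share of all genes called is not given here.

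In all 3 diets 6 members were higher and 1 was lower, 24.1% of the members against 13.5% of all genes. The 6 are Slc2a3, Pfkfb3, Ndrg1, Hif1a, Egln3 and Hk1, and the 1 is Epas1. The log2 changes on the control, deficient and excess diets were 2.93, 3.06 and 3.28 for Slc2a3, 1.70, 1.86 and 2.01 for Pfkfb3, and 0.44, 0.61 and 0.67 for Hif1a. They were 1.31, 1.31 and 1.93 for Ndrg1 and -1.13, -1.0 and -0.73 for Epas1.

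Some members passed the test in a single diet. Slc16a3 (log2 change 0.75) and Ankrd37 (0.70) passed on the control diet, Eno2 (1.26) on the deficient diet, and Aldoc (1.36) and Pfkm (0.41) on the excess diet. The interaction test asks whether the surgery effect itself differed between diets. It called 0 of 29 members by edgeR, against 0.00618% of all genes by edgeR, and 1 member by DESeq2. The share of all genes called by DESeq2 is not given here. At an unadjusted edgeR p under 0.05 there were 5 members, and the share of all genes at that threshold is not given here. The 5 were Aldoc, Ndrg1, Epas1, Ankrd37 and Pgam1, and the smallest edgeR adjusted p was 0.25, for Aldoc. The diets were therefore not shown to differ in the surgery effect on any member by edgeR.

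Diet contrasts within one operation gave few calls. After Glenn surgery, 3 members were higher in excess than in control diet libraries, against 1.47% of all genes. Aldoc held 5.56, 6.11, 3.09, 1.89 and 2.77 CPM on the control diet and 11.9, 7.95, 4.72, 6.56 and 7.96 on the excess diet, and the log2 difference was 1.28 (SE 0.28, edgeR adjusted p 0.017). Ddit4 held 55.3, 62.7, 51.8, 41.3 and 52.0 CPM on the control diet and 90.8, 102, 45.8, 71.0 and 60.0 on the excess diet, and the log2 difference was 0.78 (SE 0.18, edgeR adjusted p 0.0277). The groups overlapped for both genes. Epas1, with its libraries given above, had a log2 difference of 0.42 (SE 0.11, edgeR adjusted p 0.0467).

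These 3 calls were fragile. The control diet libraries are all of series A and 3 of the 5 excess libraries are of series B, and with no series term 0 members were called. Within series A alone all 3 were called (log2 changes 1.34 for Aldoc, 0.86 for Ddit4 and 0.53 for Epas1, from 2 excess libraries), and series B holds no control diet library. Without Glenn control replicate 4 or 5 or Glenn excess replicate 1 the count was 0, and without Glenn control replicate 3 or Glenn excess replicate 2 or 4 it was 1.

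**Figure D4:**
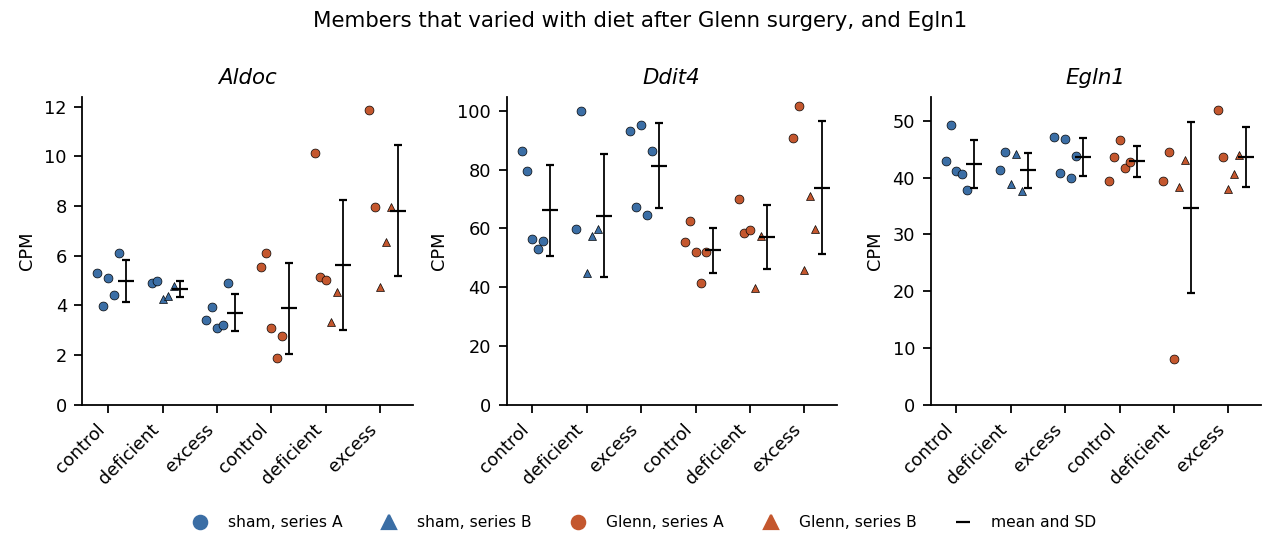
Normalised counts (CPM, y axis) of Aldoc, Ddit4 and Egln1, chosen after their values were seen, in each library by diet within sham (blue) and Glenn (orange), with circles for series A, triangles for series B and bars for the group mean and SD of 5 libraries. Aldoc and Ddit4 overlap between diets, and 1 Glenn deficient library stands at 8.15 CPM of Egln1.

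The other 5 diet contrasts called 0 members by edgeR. After sham surgery the share of all genes called by edgeR was 0.241% for excess against control. It was 0% for deficient against control and 0.0124% for excess against deficient. After Glenn surgery the share was 0.00618% for deficient against control and 0% for excess against deficient. At an unadjusted edgeR p under 0.05 there were 6, 2 and 2 members after sham surgery, in the same order. After Glenn surgery there were 3 and 3. The share of all genes at that unadjusted threshold is not given here, so these counts have no background beside them. DESeq2 called 1 member in excess against control after sham surgery and 0 in the other 4 contrasts, and its shares of all genes are not given here either. The 3 diet contrasts within an operation share libraries and are not independent of each other.

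Other genes of the pathway were read from lists of named genes, with the same averaged contrast. Among 15 rows of HIF pathway regulators, 2 rose and 3 fell (33.3% changed, against 48.2% of all genes). The HIF coactivator antagonist Cited2 (log2 change 0.22) and the ubiquitin ligase subunit Vhl (0.10) rose. The ubiquitin ligase Siah1 (-0.23) and the coactivators Ep300 (-0.18, in the more abundant of its 2 rows) and Crebbp (-0.16) fell. Arnt, the partner of both alpha subunits, did not pass (-0.05).

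Among 34 other HIF target genes, 14 rose and 8 fell (64.7% changed), and the list's median log2 change was 0.15. Adm, which encodes the vasodilator peptide adrenomedullin, ran from 6.47 to 15.2 CPM in sham (median 10.1) and from 56.3 to 128 CPM in Glenn libraries (median 82.2), which is 3.13 on the log2 scale (SE 0.12, edgeR adjusted p 5.9e-18). The chemokine receptor Cxcr4 rose by 1.83 and the growth factor Pgf by 1.85 on the log2 scale. None of these 3 overlapped between the operations.

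Vegfa, the best-known HIF target among endothelial growth factors, went down. It ran from 1096 to 1655 CPM in sham and from 289 to 484 CPM in Glenn libraries, which is -1.77 on the log2 scale (SE 0.06, edgeR adjusted p 7.15e-19). The vasoconstrictor gene Edn1 (-0.99) and the oxidoreductase Ero1a (-0.23) fell too. Alveolar epithelial cells are a known source of Vegfa, and 6 of the 9 tested epithelial rows fell while 2 rose, Ager (0.82) among them. The summed level of the 9 epithelial markers overlapped between the operations, at 34700 to 59330 CPM in sham and 25290 to 56000 CPM in Glenn libraries. The part of these cells in the Vegfa level was not tested.

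Among 14 other sugar transport and glycolysis genes, 3 rose and 6 fell (64.3% changed), with a median log2 change of -0.07. The insulin-responsive transporter Slc2a4 rose by 2.37 (0.248 to 1.55 CPM in sham and 1.15 to 14.3 CPM in Glenn libraries). It is a muscle and fat transporter, and the rise of the mural markers, whose part in this result was not tested, went with it. Bpgm, which makes 2,3-bisphosphoglycerate, rose by 0.33 and the lactate dehydrogenase subunit Ldhb by 0.35. Bpgm is abundant in red cells, and all 3 tested erythroid markers rose too, namely Alas2 (2.94), Hba-a2 (2.28) and Slc4a1 (1.62). Hba-a2 ran from 1.89 to 10.5 CPM in sham and from 2.88 to 189 CPM in Glenn libraries, and the part of these markers in the Bpgm result was not tested. Tigar, a phosphatase that lowers fructose 2,6-bisphosphate, was lower in every Glenn library (13 to 19.4 CPM) than in any sham library (37.8 to 58.0 CPM), which is -1.52 on the log2 scale (SE 0.07, edgeR adjusted p 2.26e-17). Tigar fell and Pfkfb3 rose, and their enzymes act in opposite senses on the same metabolite. The pyruvate and lactate carrier Slc16a7 (-0.59) and the ADP-dependent glucokinase Adpgk (-0.33) also fell.

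Neighbouring routes were read the same way. Of 7 pentose phosphate genes 4 changed (57.1%, against 48.2% of all genes). Of these 3 rose, namely Rpia (0.30), Tkt (0.20) and Taldo1 (0.16), and Pgd fell (-0.20). Of 28 genes of pyruvate entry and the TCA cycle 4 rose and 8 fell (42.9% changed), with a median log2 change of -0.04. Pdk4, which blocks pyruvate entry in fasting, rose by 1.16 (5.41 to 12.0 CPM in sham and 11 to 42.6 CPM in Glenn libraries). Pdha1 (0.20) and Sucla2 (0.13) rose, and Pdp1 (-0.33), Sdha (-0.13) and Ogdh (-0.14) fell.

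Among 8 upstream regulators of glycolysis genes, 4 fell. Myc, which induces glycolytic enzymes, rose by 1.10 (45 to 75.1 CPM in sham and 86.0 to 166 CPM in Glenn libraries). The flow-responsive factor Klf2, which is known to repress Pfkfb3 in endothelium, fell by 1.16 (1125 to 2021 CPM in sham and 520 to 853 CPM in Glenn libraries). The part of Klf2 in the Pfkfb3 result was not tested. Txnip, which limits glucose uptake, fell by 0.49 and Ppargc1a by 0.87. Myc, Klf2 and Ppargc1a did not overlap between the operations. All 8 proliferation markers rose as well, from a summed 18.3 to 43.1 CPM in sham to 32.3 to 91.8 CPM in Glenn libraries, and their part in the Myc result was not tested.

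**Figure D5:**
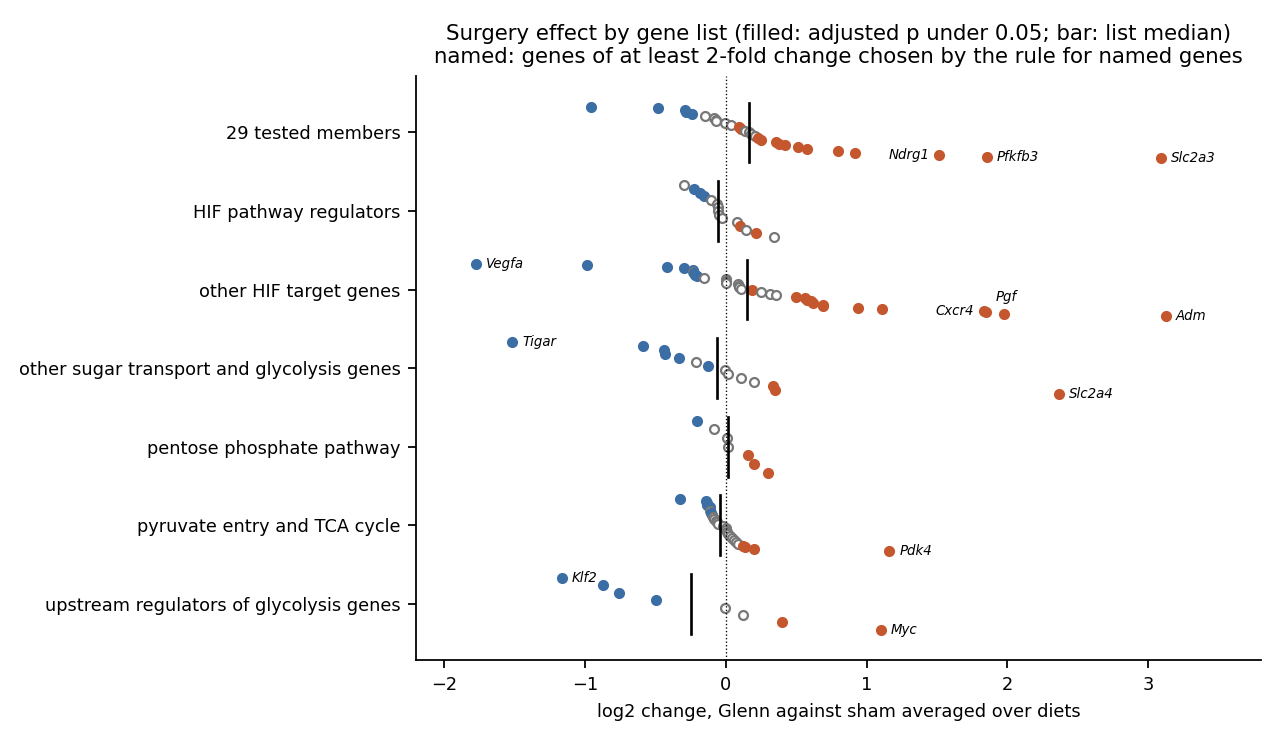
Log2 change of each tested gene, Glenn against sham averaged over diets (x axis), by gene list (y axis), with filled points for an adjusted p under 0.05 and a bar for the list median. Most genes of the metabolic lists lie near 0, with Adm, Slc2a3 and Slc2a4 furthest to the right and Vegfa and Tigar furthest to the left.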

How the data were processed

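Per the submitters' processing notes, the tools named are FastQC, Trim Galore, STAR, Salmon and Picard and the build mRatBN7.2 (rn7). Versions, annotation and strandedness are not given in the sources used here. Per the labels' protocols, a PureLink kit gave the RNA and a SMART-Seq low-input kit the libraries. The authors deposited 1 table of estimated counts per gene, of which 13.6% of values were not whole. Within groups, 60 library pairs had chi-square per degree of freedom of 17.4 to 102, so none was counted as a repeat.

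Counts were rounded, filtered with filterByExpr (minimum 10, minimum total 15) and scaled by TMM (edgeR 4.0.16, R 4.3.3). A single quasi-likelihood fit held the 6 group means and the library series. P-values were adjusted by Benjamini-Hochberg over 16171 genes with a threshold of 0.05. A standard error is the log2 change over the square root of F, and 95% intervals are 1.96 standard errors. Steps were tested on simulated counts with no series or cell-mix shift and far fewer changed genes than were called here. Of 100 genes changed by 0.5 on the log2 scale in either direction, edgeR recovered 81 averaged over diets and 43 on the control diet. Of 100 changed by 1, it recovered 99 and 81. Small changes within a diet can thus be missed. Alternatives used DESeq2 1.42.0 and limma 3.58.1.

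The members, gene lists and tests were chosen with earlier results of these data known. All members are named. Those called with an absolute log2 change of at least 0.5, and Hif1a and Epas1, have full statistics. Of each list, the text names up to 3 raised and 3 lowered genes with the smallest adjusted p and a mean of at least 1 CPM, and in diet contrasts up to 5 called members. Arnt is named besides. Values of 2 genes of the lists are not reported here. RefSeq sequences were matched by symbol, and their build differs from that of the counts.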

Additional observations from a re-analysis of the deposited data

Results flagged for a closer look

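In 11 of 174 sets of 5 libraries, each set being a tested member in a group, the highest or lowest library stood apart from the other 4 by more than 0.71 of the group's whole range. Chance flags about 1 in 20 such sets, or 8.7 of 174. Low libraries were Egln1 in Glenn deficient replicate 3 (gap 0.829 of the range, 8.15 CPM against 38.3 to 44.5), Ndrg1 in Glenn excess replicate 3 (0.814, 90.5 CPM against 120.0 to 127), Slc16a3 in Glenn control replicate 2 (0.747) and Bnip3l in sham control replicate 2 (0.742). High libraries were Bnip3l in Glenn excess replicate 5 (0.808), Hk2 in sham control replicate 1 (0.792), Pfkfb3 in Glenn control replicate 1 (0.782, 95.1 CPM against 61.4 to 68.8), Aldoa in sham excess replicate 1 (0.765), Gpi in Glenn deficient replicate 1 (0.765), Aldoc in Glenn deficient replicate 1 (0.736, 10.1 CPM against 3.33 to 5.13) and Ddit4 in sham deficient replicate 2 (0.726).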

How the results depend on the processing

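Averaged over diets, 19 members were called. The count was 8 with the mural score and 10 with the lymphatic score as a covariate, and 15 to 19 in the other settings. Shares of all genes called under the alternative settings of this section are not given here. Leaving out each library gave 17 to 20. Without sham control replicate 3 or Glenn control replicate 5, Pfkl was called besides. The replicate number as a replicate block gave 17, with Aldoc and Gpi lost, and 0 in excess against control after Glenn surgery. Between groups, same-numbered libraries had a median r of deviations of 0.104 (-0.246 to 0.292), with 38 of 75 pairs over 0.1, against -0.024 and 52 of 300 for other numbers. The share of pairs over 0.1 was thus higher for same-numbered libraries, and what they may share was not tested. Since the labels name no shared source, the numbers were not taken as pairs. On the control diet the count was 5 with the mural score and 5 in RT1-CE16-low libraries, on the deficient diet 6 and on the excess diet 5 with the mural score. Leaving out each library gave 10 to 12, 11 to 12 and 11 to 13 on the control, deficient and excess diets.

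For excess against control after Glenn surgery the count was 0 with no series term, with leukocyte and epithelial scores, with only the groups compared, and in RT1-CE16-low or RT1-CE16-high libraries alone. It was 1 with an RT1-CE16 term replacing the series term and 0 to 3 without each library. DESeq2 called 1 member in excess against control after sham surgery and 1 in the interaction.

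The log2 change turned sign with the mural score for Pdk1 (0.20), Hk2 (-0.71), Eno2 (-0.28) and Egln1 (0.68). With the lymphatic score it turned for Egln3 (-0.18), Ankrd37 (-0.18), Aldoa (0.057), Egln1 (0.030) and Pgam1 (0.16). In RT1-CE16-low libraries it turned for Hk2 (-0.045), Ankrd37 (-0.040) and Pgam1 (0.034). Pgam1, at -0.004, also turned with no series term (0.0067), in series A alone (0.041), with the RT1-CE16 level (0.0027), DESeq2 size factors (0.0085), the DESeq2 test (0.0086) and leukocyte and epithelial scores (0.0032), and ran from -0.013 to 0.016 without each library. Egln1 ran from -0.14 to 0.026 without each library. The cause of these shifts was not tested. Slc2a3, Pfkfb3, Ndrg1, Epas1 and Hk1 kept direction and call in all 42 settings.

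RT1-CE16-high libraries hold no sham excess library, so contrasts that need one were not run there, and fits of only the groups compared equal the reported ones for the averaged contrast and the interaction. The RT1-CE16 subsets and the lymphatic score were chosen after seeing the data. Hk2, Car9, Ankrd37, Pfkfb4 and Eno2 held at most 4.53 CPM in any library, and whether depth limits their calls was not tested.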
